A study of Homo sapiens with 48 samples.

Results

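The genes described here are KAT5, ING3, MEAF6, EPC1, EPC2, BRD8, MRGBP, MORF4L1 and MORF4L2, which encode the acetyltransferase core and the BRD8-MRG module of the human EP400/TIP60 chromatin complex. They were picked by symbol, and all 9 were found among the 19102 genes of the deposited table. The cells were A382, a human glioblastoma line, and polyadenylated RNA was sequenced in 48 libraries. Of these, 44 came from cells infected with lentiviral guide RNAs and collected at day 9, and 4 from cells collected at day 2 of doxycycline. Guides were directed at BRD8 or H2AZ (2 guides with 2 replicates each), at TIP60, ING3, MEAF6, MRGBP, MORF4L1, MORF4L2, EP400, TRRAP, RUVBL1, RUVBL2, ACTL6A, DMAP1, GAS41 or VPS72 (2 guides each, 1 library per guide), or were non-targeting (sgNeg1 to sgNeg4, 2 libraries each). The doxycycline libraries were 2 of A382 cells with an inducible p53 (A382_P53) and 2 of A382 cells with a control vector (A382_PCW), so doxycycline was given to both. All libraries of a target, also those of different guides, entered the fits as replicates, with no term for the guide. The labels name neither clones nor independent cultures. A p-value here thus reflects variation among guides and libraries, and the variation between libraries of the same guide could be purely technical. EPC1 and EPC2 were not targeted. The libraries show mRNA levels after infection with these guides and with induced p53, and hold no measure of growth or survival.

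The complex joins a histone acetyltransferase to an ATP-dependent motor that exchanges the histone variant H2A.Z into nucleosomes. KAT5, also called TIP60, is the catalytic subunit and acetylates histones H4 and H2A, as well as p53 itself. In the yeast counterpart of the core, the NuA4 piccolo module, the orthologues of EPC1/EPC2, ING3 and MEAF6 bind the catalytic subunit and enable it to act on nucleosomes. MORF4L1 (MRG15) carries a chromodomain that reads methylated histone H3 lysine 36, MORF4L2 (MRGX) is a close relative without that domain, MRGBP binds both, and BRD8 is a bromodomain protein. MEAF6 also serves in the MOZ/MORF and HBO1 acetyltransferase complexes, and the MORF4L proteins also serve in SIN3 histone deacetylase complexes.

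Promoters are shown for MEAF6, MRGBP and MORF4L1, whose mRNA was called lower both in TIP60 knockout and with induced p53. MORF4L2 was called lower in both as well, but its promoter could not be searched. In TIP60 knockout the call of MORF4L1 was lost under 7 of the 9 alternatives run, and those of MRGBP and MORF4L2 under 5 each. Their RefSeq promoters are shown as the 250 bases before the annotated start (GRCh38.p14). Of the 9 members, 7 had an entry, and ING3 and MORF4L2 had none. Capitals mark, on either strand, GCGC followed by any base N and then TGCGC, the letters recognised by NRF1, an activator of mitochondrial and housekeeping genes.
MEAF6 promoter, chr1:37514767-37515016, minus strand: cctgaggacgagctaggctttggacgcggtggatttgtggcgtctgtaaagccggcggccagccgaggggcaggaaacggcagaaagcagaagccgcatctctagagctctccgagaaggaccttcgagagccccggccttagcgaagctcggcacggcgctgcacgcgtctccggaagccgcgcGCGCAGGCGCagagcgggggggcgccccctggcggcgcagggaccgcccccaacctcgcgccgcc
MRGBP promoter, chr20:62796223-62796472, plus strand: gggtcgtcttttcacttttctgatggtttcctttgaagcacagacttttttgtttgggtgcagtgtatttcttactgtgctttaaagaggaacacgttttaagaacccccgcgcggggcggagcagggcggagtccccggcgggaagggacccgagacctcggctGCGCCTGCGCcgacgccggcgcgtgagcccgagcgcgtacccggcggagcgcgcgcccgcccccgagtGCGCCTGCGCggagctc
MORF4L1 promoter, chr15:78872640-78872889, plus strand: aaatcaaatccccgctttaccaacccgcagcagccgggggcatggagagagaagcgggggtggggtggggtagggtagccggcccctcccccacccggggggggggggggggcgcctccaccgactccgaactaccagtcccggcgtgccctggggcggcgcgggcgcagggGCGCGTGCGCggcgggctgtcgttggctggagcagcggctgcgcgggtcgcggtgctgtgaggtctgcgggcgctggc
These letters occurred in 3 of the 7 members, namely these 3, and in 5.07% of 35116 promoters of the same length. The motif was chosen after the sequences and the folds had been seen, so the match is a description. Other motifs were searched in the same windows on both strands. CCAAT (NF-Y) was in an EPC1 promoter and in 32.0% of all promoters, TTTGAA (the cell cycle homology region) in that of MRGBP and in 13.3%, and CCGGAAG (ETS factors) in those of MEAF6 and KAT5 and in 8.52%. The p53 response element was searched only as an exact repeat of RRRCWWGYYY (R is A or G, W is A or T, Y is C or T). Up to 13 bases between the copies and no mismatch were allowed. It was in none of the 7 members and in 0.0256% of all promoters. A pattern this rare was unlikely to be met in any of them, and sites further away were not searched, so its absence says nothing about the members. In the 3 promoters shown no other searched motif shared bases with the capitals, and a match does not show that a factor binds.

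Abundance is given as FPKM, fragments per kilobase of transcript scaled by library depth, which can be compared between genes of a library. The table is laid out in 5 sections that were scaled separately, so each knockout was set only against the sgNeg libraries of its own section. sgNeg1 stands with BRD8, sgNeg3 with both MORF4L and both RUVBL targets, sgNeg4 with H2AZ, and sgNeg2 with the remaining 10 targets. An FPKM of 1 stood for between 4.3 and 21.8 fragments per kilobase in the different libraries, and the least covered member in any library still had 19.1 fragments per kilobase. The values of MEAF6 guide 2 were identical to those of VPS72 guide 2 in all 19102 genes and were used for neither target, which leaves 1 library for each. In control libraries VIM (1320 to 11300 FPKM), CD44 (118 to 538 FPKM) and TNC (35.0 to 334 FPKM) were abundant, whereas the glial genes OLIG2, GFAP and CHI3L1 stayed at or below 0.0325, 0.206 and 0 FPKM. SOX2 (0.181 to 79.0 FPKM) and NES (0.01 to 8.75 FPKM) varied widely between control libraries, and EGFR ranged from 3.61 to 19.0 FPKM. Of the immune genes PTPRC stayed at or below 0.0953 FPKM, whereas CD68 reached 1.42 to 27.1 FPKM. Endothelial PECAM1 stayed at or below 0.0506 FPKM. Of the neuronal genes SYT1 (14.4 to 99.6 FPKM), SNAP25 (2.87 to 15.5 FPKM) and TUBB3 (42.0 to 391 FPKM) were expressed and RBFOX3 was at most 0.132 FPKM. Of the epithelial genes KRT18 (34.7 to 96.4 FPKM) and KRT8 (5.92 to 13.6 FPKM) were expressed, while EPCAM and CDH1 were at most 0.284 and 0.0166 FPKM.

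The 9 mRNAs spanned a wide range of abundance. In every sgNeg group the MRG proteins had the highest means and the Enhancer of Polycomb proteins the lowest. In A382_PCW libraries EPC2 averaged 7.47 FPKM, above ING3 at 5.87 FPKM. In sgNeg2 libraries MORF4L2 averaged 156 FPKM, MORF4L1 52.4, MRGBP 41.3, BRD8 32.5, KAT5 14.3, ING3 8.38, MEAF6 8.22, EPC1 7.83 and EPC2 6.16 FPKM. Of the neighbours in this order, ING3 and MEAF6 overlapped between libraries and the others did not. The order of the first 5 was the same in sgNeg3 and sgNeg4, and the order of the first 4 in A382_PCW as well. The BRD8 section differed from this order. There MORF4L1 averaged 65.9 FPKM and MORF4L2 17.2 FPKM in sgNeg1 libraries, and MORF4L2 over MORF4L1 was 0.197 to 0.264 in the 6 libraries of that section, against 1.83 to 4.56 in the other sections. Both sgBRD8 and sgNeg1 libraries had this low ratio, so it did not follow the knockout. Several members have annotated close copies or overlapping neighbours. MORF4L1, MORF4L2 and MEAF6 have processed pseudogenes, and KAT5, MRGBP, BRD8 and MORF4L2 overlap a gene on the other strand. The library kit marks strand, but the counting setting is not given in the sources used here, so reads of these genes could have been split or shared.

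Among the 7 targeted members, KAT5 and BRD8 mRNA fell in their own knockouts, 4 others were lower without a call, and MORF4L1 was not lower. KAT5, the catalytic subunit, measured 7.28 and 7.48 FPKM in sgTIP60 libraries, against 15.2 and 13.5 FPKM in sgNeg2 libraries. The groups did not overlap, and both guides left about the same amount. This gave a log2 fold change of -0.87 ± 0.12 (SE), with an adjusted p of 6.02e-05 from limma over all genes of the section. In bulk RNA of infected cells, fewer edited cells and less RNA per cell cannot be told apart, and a guide can disrupt a protein without lowering its mRNA.

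BRD8 measured 6.26 and 6.39 FPKM with guide 1 and 5.19 and 5.36 FPKM with guide 2 in sgBRD8 libraries, against 13.6 and 13.3 FPKM in sgNeg1 libraries. All 4 knockout libraries were below both controls, and those of guide 2 were below those of guide 1. With a log2 fold change of -1.09 ± 0.083 (limma adjusted p = 1.38e-05), only 0.627% of the genes tested there had a lower fold.

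MRGBP, the adaptor between BRD8 and the MORF4L proteins, differed most between guides. It measured 29.7 FPKM with guide 1 and 12.3 FPKM with guide 2 in sgMRGBP libraries, against 43.1 and 39.4 FPKM in sgNeg2 libraries. Both were below the controls, but the log2 fold change of -1.06 ± 0.24 missed the threshold (limma adjusted p = 0.0948). Without guide 1 it was -1.66 and called, and without guide 2 it was -0.46 and not called. ING3, a PHD finger reader of methylated histone H3 lysine 4, measured 4.48 and 6.55 FPKM in sgING3 libraries, against 7.60 and 9.15 FPKM in sgNeg2 libraries. The libraries did not overlap, and the log2 fold change of -0.54 ± 0.17 was not called (limma adjusted p = 0.274). It was -0.31 without guide 1 and -0.77 without guide 2, neither of them called (limma adjusted p = 1.0 and 0.145). MEAF6 measured 5.61 FPKM in its single usable knockout library, against 8.18 and 8.26 FPKM in sgNeg2 libraries, a log2 fold change of -0.48 ± 0.13 with an adjusted p of 1.0 from limma. The column shared with VPS72 guide 2 held 9.45 FPKM of MEAF6.

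The 2 MORF4L genes kept mRNA close to control in their own knockouts. MORF4L1 measured 51.3 and 63.3 FPKM in sgMORF4L1 libraries, against 55.2 and 55.6 FPKM in sgNeg3 libraries, with 1 guide library on each side of the controls. Its log2 fold change was 0.039 ± 0.29 (limma adjusted p = 1.0) and turned to -0.11 without guide 2. MORF4L2 measured 155 and 151 FPKM in sgMORF4L2 libraries, against 168 and 162 FPKM in sgNeg3 libraries, a log2 fold change of -0.11 ± 0.15 (limma adjusted p = 0.858). Neither gene was called between the 2 knockouts. MORF4L2 had a log2 difference of 0.059 ± 0.15 and MORF4L1 of -0.028 ± 0.29 in sgMORF4L2 against sgMORF4L1 libraries, and 0 of 9 members and 0% of all tested genes were called in that contrast, with 88 genes at an unadjusted p under 0.05. The mRNA level gives no check of these 2 knockouts, and protein was not analysed here. The sgMORF4L2 guide 2 library also held 82.8 FPKM of MORF4L1 and 71.3 FPKM of MRGBP, against 37.6 and 43.1 FPKM in the guide 1 library.

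**Figure D1:**
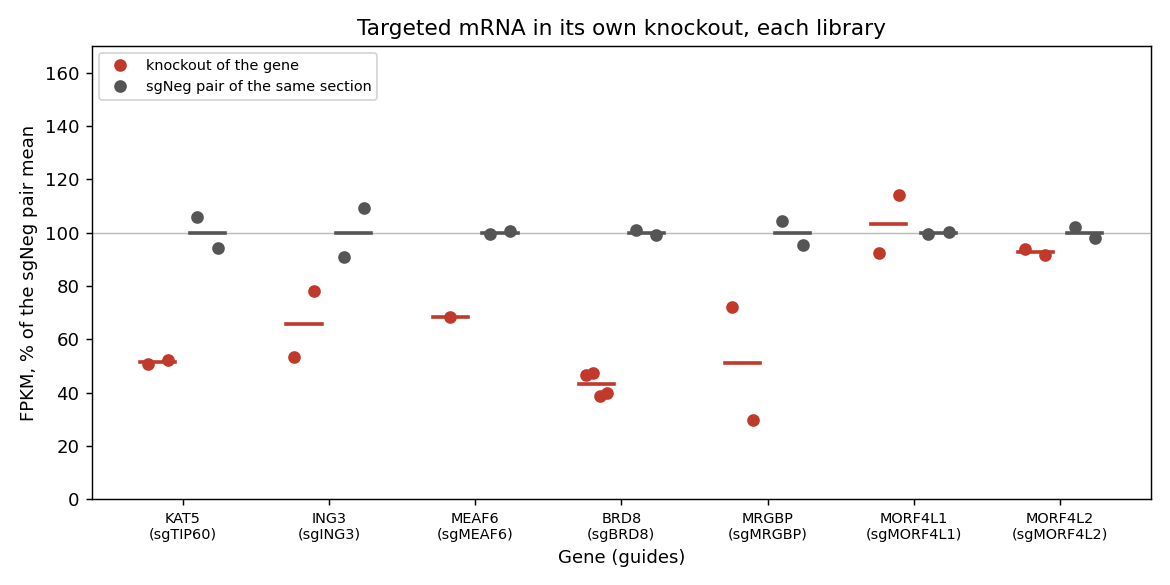
FPKM of each targeted member in each library of its own knockout (left, red) and in the sgNeg libraries of its section (right, grey), as % of the sgNeg mean. Points are libraries and bars are means. KAT5 and BRD8 lie near or below 50% in all their knockout libraries, the MRGBP guides lie far apart, and the MORF4L1 and MORF4L2 knockout libraries lie close to 100%.

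Across the 16 knockouts, 137 pairs of a knockout and a member other than its target were tested. Of these pairs, 11 were called, 9 lower and 2 higher, in 4 knockouts: TIP60, RUVBL1, RUVBL2 and BRD8. The share of all gene tests called in the 16 knockouts was 10.4%, so the members' share is near the background. A further 12 pairs had a log2 fold change of at least 0.3 in size without a call, and the other 114 lay between -0.30 and 0.27.

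**Figure D2:**
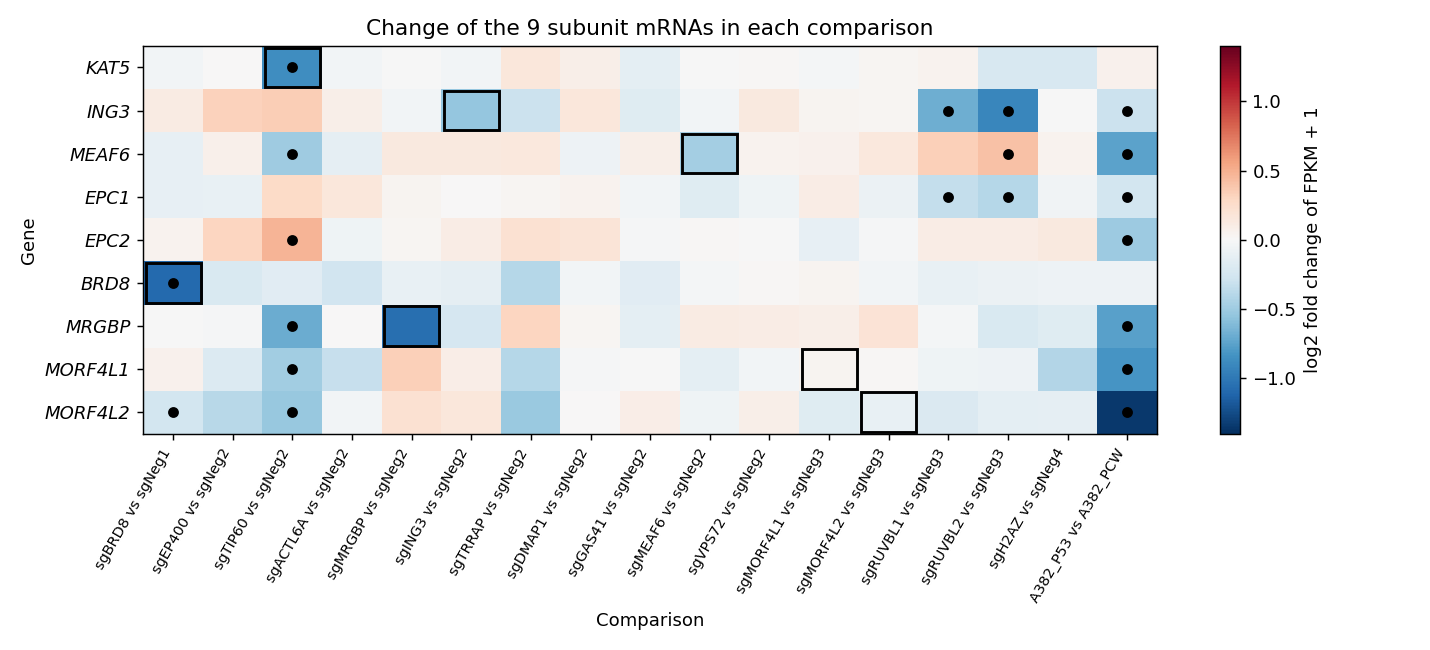
Log2 fold change of FPKM + 1 for the 9 members (rows) in each of the 16 knockouts and on p53 induction (columns), with blue lower and red higher than the control named second. Dots mark calls at a limma adjusted p under 0.05 and frames mark the targeted gene. TIP60 knockout, the RUVBL knockouts and induced p53 hold most of the dots.

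In TIP60 knockout 5 of the 8 other members were called, where 42% of all genes tested were called, 26.6% lower and 15.4% higher. MEAF6, MRGBP, MORF4L1 and MORF4L2 fell, and EPC2 rose. Broad change across the transcriptome thus forms the background of these counts. MEAF6 measured 5.21 and 5.88 FPKM in sgTIP60 libraries, against 8.18 and 8.26 FPKM in sgNeg2 libraries. The groups did not overlap, and the level was about that of the MEAF6 guide 1 library itself, at 5.61 FPKM. MEAF6 had a log2 fold change of -0.50 ± 0.11 (limma adjusted p = 0.00196), and the call held under all 9 alternatives run.

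EPC2, an Enhancer of Polycomb protein that tethers the catalytic subunit, measured 7.24 and 10.9 FPKM in sgTIP60 libraries, against 5.47 and 6.84 FPKM in sgNeg2 libraries. The lower sgTIP60 library was only slightly above the higher control. The log2 fold change of 0.48 ± 0.18 was at the threshold (limma adjusted p = 0.0495), and it was 0.21 without sgTIP60 guide 2 and 0.34 without sgNeg2 replicate 1, neither of them called, and also uncalled without sgNeg2 replicate 2 (0.61). Its paralogue EPC1 measured 8.58 and 10.9 FPKM in sgTIP60 libraries, against 7.92 and 7.74 FPKM in sgNeg2 libraries, a log2 fold change of 0.27 ± 0.15 (limma adjusted p = 0.168). ING3 measured 9.37 and 12.6 FPKM in sgTIP60 libraries, against 7.60 and 9.15 FPKM in sgNeg2 libraries, a log2 fold change of 0.34 ± 0.17 (limma adjusted p = 0.121). These 3 mRNAs were all higher in the library of guide 2 than in that of guide 1.

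In the BRD8-MRG module, MRGBP measured 24.9 and 25.4 FPKM in sgTIP60 libraries, against 43.1 and 39.4 FPKM in sgNeg2 libraries. Both guides gave nearly the same level, well under the controls. This level lay between those of the sgMRGBP libraries, at 29.7 FPKM for guide 1 and 12.3 FPKM for guide 2. MRGBP thus had a log2 fold change of -0.69 ± 0.24 (limma adjusted p = 0.0311). MORF4L1 measured 40.5 and 33.8 FPKM in sgTIP60 libraries, against 54.7 and 50.1 FPKM in sgNeg2 libraries, a log2 fold change of -0.49 ± 0.19 (limma adjusted p = 0.0467). MORF4L2 measured 103 and 114 FPKM in sgTIP60 libraries, against 156 and 157 FPKM in sgNeg2 libraries, a log2 fold change of -0.53 ± 0.18 (limma adjusted p = 0.0293). For both genes the groups did not overlap. BRD8 itself measured 28.0 and 30.2 FPKM in sgTIP60 libraries, against 34.3 and 30.7 FPKM in sgNeg2 libraries, and was not called (log2 fold change -0.15 ± 0.15, limma adjusted p = 0.442).

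The MRGBP call was lost when any 1 of the 4 libraries was left out (-0.76 to -0.63) and with no filter on low values (limma adjusted p = 0.0674). That of MORF4L1 was lost without either sgNeg2 library or sgTIP60 guide 2 (-0.55 to -0.36). It was also lost with no filter on low values (limma adjusted p = 0.0747), with the spread from the comparison alone (0.0666) and with the spread shared over all guide libraries (0.0653). The call of MORF4L2 was lost without either sgNeg2 library or sgTIP60 guide 1 (-0.53 to -0.45) and with the spread from the comparison alone (limma adjusted p = 0.0793). Rescaling the libraries by their median ratio moved the median log2 fold change of all genes in this comparison to 0.023, against -0.095 as deposited, and the share of calls that were higher to 51.3%, against 36.7%. On the rescaled values KAT5 had a log2 fold change of -0.75, MEAF6 -0.38, MRGBP -0.56 and EPC2 0.60, all called, while MORF4L1 at -0.36 and MORF4L2 at -0.39 were not (limma adjusted p = 0.0851 and 0.0561), and ING3 at 0.47 was (limma adjusted p = 0.0353).

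**Figure D3:**
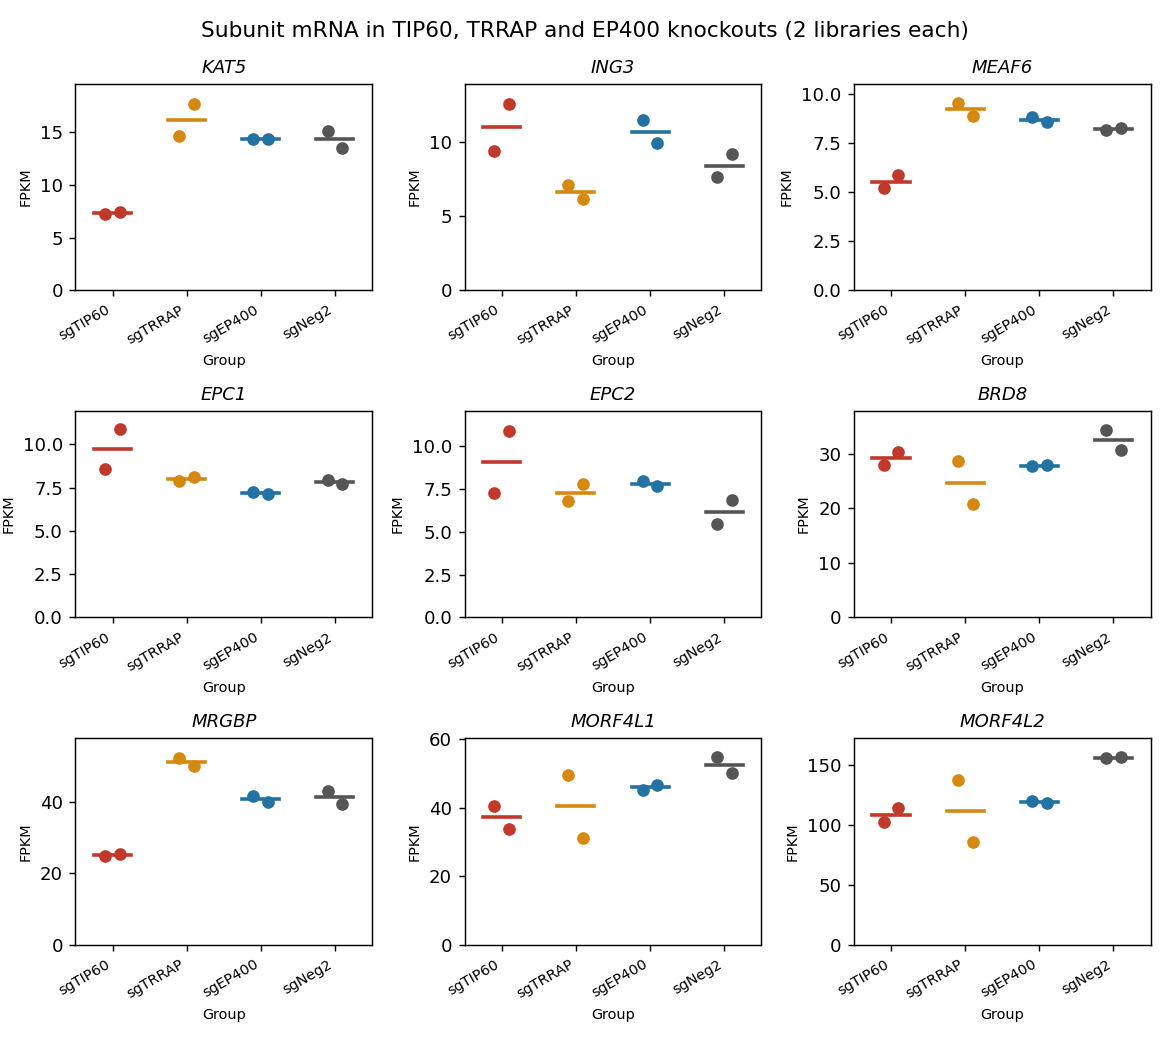
FPKM of the 9 members in sgTIP60, sgTRRAP, sgEP400 and sgNeg2 libraries, 2 libraries each, with bars at the means and each axis starting at 0. KAT5, MEAF6 and MRGBP are lower in the sgTIP60 libraries than in any of the other 3 groups, and the sgTRRAP libraries differ from each other for BRD8, MORF4L1 and MORF4L2.

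The direct contrasts asked whether these levels differ from those in knockouts of the motor EP400 or the scaffold TRRAP. The mRNA of EP400 and TRRAP in their own knockouts was not examined here. KAT5 was lower in sgTIP60 than in sgEP400 libraries, with a log2 difference of -0.88 ± 0.12 (limma adjusted p = 0.000295). MEAF6 was lower by a log2 difference of -0.57 ± 0.11 (limma adjusted p = 0.00207). These were 2 of 9 members, against 21.3% of all genes called. KAT5 is the target of sgTIP60, so its call says nothing about the other members, of which only MEAF6 was called. MRGBP measured 24.9 and 25.4 FPKM in sgTIP60 libraries, against 41.5 and 39.8 FPKM in sgEP400 libraries, and its difference of -0.67 ± 0.24 missed the threshold (limma adjusted p = 0.0594). Against sgTRRAP, 4 of 9 members were called, again with the target KAT5 counted, where 38.2% of all genes were. KAT5 (-1.03 ± 0.12, limma adjusted p = 2.54e-05), MEAF6 (-0.65 ± 0.11, limma adjusted p = 0.000363) and MRGBP (-0.99 ± 0.24, limma adjusted p = 0.00481) were lower in sgTIP60 libraries than in sgTRRAP libraries. ING3 was higher, at 9.37 and 12.6 FPKM in sgTIP60 libraries, against 7.07 and 6.16 FPKM in sgTRRAP libraries (log2 difference 0.64 ± 0.17, limma adjusted p = 0.0086). Rescaling moved the share of calls that were higher to 52.1%, against 36.8%, in the EP400 contrast and to 52.6%, against 38.1%, in the TRRAP contrast. The calls of KAT5, MEAF6 and MRGBP in the contrast with TRRAP held under all 5 alternatives run for it.

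Knockout of either ATPase of the RUVBL1/RUVBL2 ring, which assembles the complex, was accompanied by lower ING3 and EPC1. The mRNA of RUVBL1 and RUVBL2 in their own knockouts was not examined here. ING3 measured 4.90 and 4.03 FPKM in sgRUVBL1 libraries and 3.77 and 3.60 FPKM in sgRUVBL2 libraries, against 8.58 and 7.05 FPKM in sgNeg3 libraries. All 4 knockout libraries were below both controls. It had a log2 fold change of -0.69 ± 0.13 in RUVBL1 knockout (limma adjusted p = 0.00637) and -0.91 ± 0.13 in RUVBL2 knockout (limma adjusted p = 0.00126). In RUVBL2 knockout 6.27% of tested genes had a lower fold. Its call there held under all 9 alternatives run, whereas the RUVBL1 call was lost without sgNeg3 replicate 1 (-0.56, limma adjusted p = 0.0707) and without sgRUVBL1 guide 2 (-0.57, limma adjusted p = 0.0663).

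EPC1 measured 5.53 and 5.63 FPKM in sgRUVBL1 libraries and 5.59 and 5.07 FPKM in sgRUVBL2 libraries, against 7.52 and 7.11 FPKM in sgNeg3 libraries. Its log2 fold changes were -0.34 ± 0.10 (limma adjusted p = 0.0344) and -0.40 ± 0.10 (limma adjusted p = 0.0154). The paralogue EPC2 was not called (0.099 ± 0.19 and 0.11 ± 0.19), at 6.09 and 4.88 FPKM in sgRUVBL1 libraries and 6.11 and 4.91 FPKM in sgRUVBL2 libraries, against 5.01 and 5.05 FPKM in sgNeg3 libraries. MEAF6 was on the other side of its controls, at 10.9 and 10.7 FPKM in sgRUVBL1 libraries and 11.5 and 11.3 FPKM in sgRUVBL2 libraries, against 8.60 and 8.09 FPKM in sgNeg3 libraries. It was called in RUVBL2 knockout (log2 fold change 0.41 ± 0.13, limma adjusted p = 0.0348) and not in RUVBL1 knockout (0.34 ± 0.13, limma adjusted p = 0.0741), with no overlap between groups in either. The EPC1 calls and the MEAF6 call were each lost when any 1 of the 4 libraries of their comparison was left out (-0.37 to -0.30 and -0.45 to -0.34 for EPC1, 0.37 to 0.45 for MEAF6).

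Of the 9 members, 2 were called in RUVBL1 knockout, both lower, where 27.8% of all genes were called (15.5% lower, 12.3% higher). In RUVBL2 knockout 3 were called, 2 lower and 1 higher, where 33.4% of all genes were (19.9% lower, 13.5% higher). The counts are thus close to the background. KAT5, BRD8, MRGBP, MORF4L1 and MORF4L2 were not called in either, with log2 fold changes between -0.22 and 0.052. In sgRUVBL2 against sgRUVBL1 libraries 0 of 9 members were called by limma, 0 of them at an unadjusted p under 0.05, where 0.00904% of all genes were called. For ING3 that difference was -0.22 ± 0.13.

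**Figure D4:**
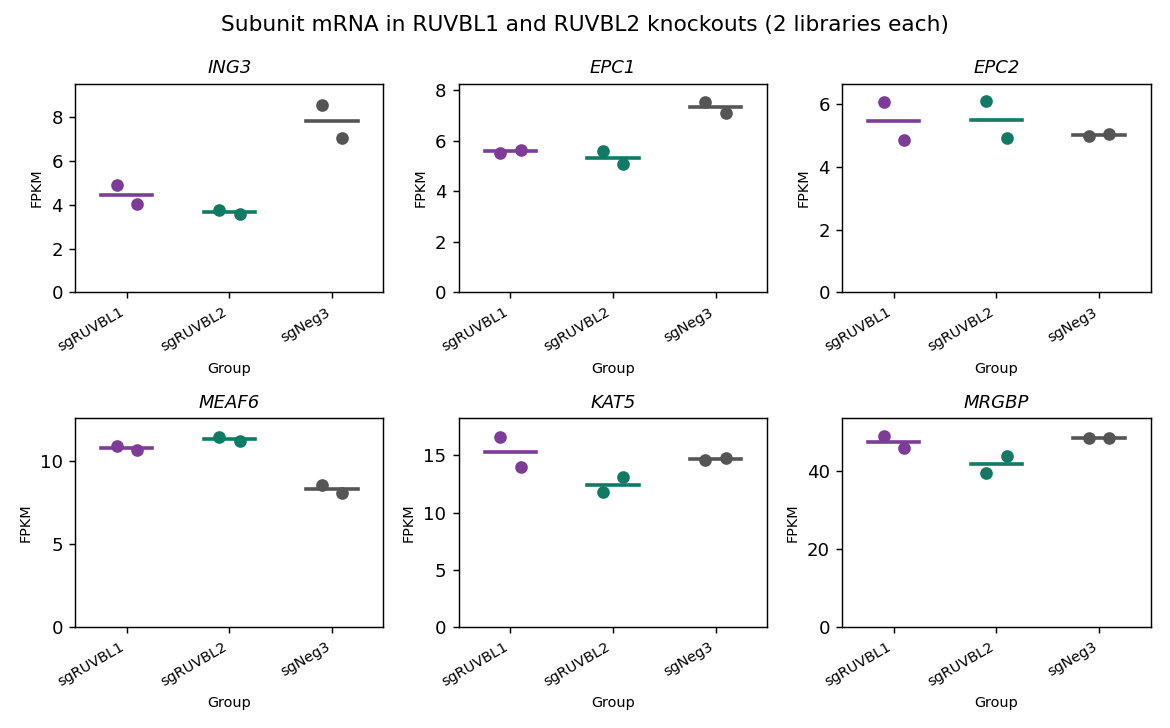
FPKM of 6 members in sgRUVBL1, sgRUVBL2 and sgNeg3 libraries, 2 libraries each, with bars at the means and axes starting at 0. ING3 and EPC1 are lower and MEAF6 is higher in all 4 knockout libraries, while EPC2, KAT5 and MRGBP were not called.

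In BRD8 knockout MORF4L2 fell and no other member outside the target was called. MORF4L2 measured 13.1, 14.7, 15.1 and 14.0 FPKM in sgBRD8 libraries, against 17.6 and 16.8 FPKM in sgNeg1 libraries. All 4 knockout libraries were below both controls. This log2 fold change of -0.26 ± 0.067 was called (limma adjusted p = 0.0105), and it was -0.23 and not called without sgNeg1 replicate 1 (limma adjusted p = 0.0944). With the spread taken over all guide libraries it was not called either (limma adjusted p = 0.126). This was 1 of 8 other members, against 45.9% of all genes called. MRGBP, the direct partner of BRD8 in the module, measured 7.19, 6.99, 6.57 and 6.62 FPKM in sgBRD8 libraries, against 6.48 and 7.29 FPKM in sgNeg1 libraries (log2 fold change -0.006 ± 0.068). MORF4L1 measured 66.7, 72.9, 71.4 and 64.7 FPKM in sgBRD8 libraries, against 66.5 and 65.4 FPKM in sgNeg1 libraries (log2 fold change 0.062 ± 0.063). The libraries of the groups overlapped for both. EPC1, EPC2, ING3 and MEAF6 averaged only 1.75, 2.07, 2.46 and 2.93 FPKM in sgNeg1 libraries, and the scale used understates changes of such low genes. Their log2 fold changes were -0.12, 0.046, 0.118 and -0.112, none of them called. The median log2 fold change of the 8 was -0.024, and that of all genes was 0.02.

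In the knockouts labelled MRGBP, ING3, MEAF6, MORF4L1 and MORF4L2, 0 other members were called by limma. The mRNA of the target was not called lower in any of these 5, and the share of all genes called was 0.264%, 0.0264% and 0% for MRGBP, ING3 and MEAF6 and 0% for each MORF4L gene. In these 5 knockouts 0 other members reached an unadjusted p under 0.05 in limma. MORF4L1 was higher in both sgMRGBP libraries, at 77.9 and 56.6 FPKM, than in sgNeg2 libraries, at 54.7 and 50.1 FPKM, without a call (log2 fold change 0.34 ± 0.19, limma adjusted p = 0.467). Neither MORF4L gene was called in the knockout of the other. MORF4L2 measured 168 and 128 FPKM in sgMORF4L1 libraries, against 168 and 162 FPKM in sgNeg3 libraries, and MORF4L1 measured 37.6 and 82.8 FPKM in sgMORF4L2 libraries, against 55.2 and 55.6 FPKM in sgNeg3 libraries.

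Among the remaining knockouts the share of all genes called was 3.83% in EP400, 0.782% in ACTL6A, 14.2% in TRRAP, 0% in DMAP1, 0.94% in GAS41, 0% in VPS72 and 6.02% in H2AZ, and 0 of 9 members were called by limma in each. At an unadjusted p under 0.05 there were 3 members in TRRAP, 2 in H2AZ, 1 in EP400 and 0 in the other 4. In EP400 knockout MORF4L2 measured 120 and 119 FPKM in sgEP400 libraries, against 156 and 157 FPKM in sgNeg2 libraries (log2 fold change -0.39 ± 0.18, limma adjusted p = 0.252). ING3 (0.32 ± 0.17) and EPC2 (0.30 ± 0.18) had positive log2 fold changes there, not called.

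TRRAP guide 2 stood apart from guide 1 for 3 members of the BRD8-MRG module. BRD8 measured 28.7 and 20.7 FPKM in sgTRRAP libraries of guides 1 and 2, against 34.3 and 30.7 FPKM in sgNeg2 libraries. MORF4L1 measured 49.6 and 31.2 FPKM in sgTRRAP libraries, against 54.7 and 50.1 FPKM in sgNeg2 libraries, and MORF4L2 measured 137 and 86.0 FPKM in sgTRRAP libraries, against 156 and 157 FPKM in sgNeg2 libraries. None was called with both guides (log2 fold changes -0.40, -0.40 and -0.52, limma adjusted p = 0.0893, 0.16 and 0.0658), and all 3 were without guide 1 (-0.62, -0.73 and -0.86). With both guides kept, MORF4L2 was called after rescaling (-0.50, limma adjusted p = 0.0429) and with the spread shared over all guide libraries (limma adjusted p = 0.00805), and BRD8 with that shared spread (limma adjusted p = 0.0187). MRGBP did not follow them, at 52.2 and 49.96 FPKM in sgTRRAP libraries, against 43.1 and 39.4 FPKM in sgNeg2 libraries (0.30 ± 0.24, limma adjusted p = 0.42). In ACTL6A knockout MORF4L1 had a log2 fold change of -0.32 ± 0.19. In H2AZ knockout MORF4L1 measured 79.4, 76.4, 74.1 and 82.3 FPKM in sgH2AZ libraries, against 121 and 89.6 FPKM in sgNeg4 libraries, where the controls were far apart (-0.41 ± 0.12, limma adjusted p = 0.0805). Without sgNeg4 replicate 2 it was -0.63 and called.

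Induced p53 was accompanied by lower mRNA of 7 of the 9 members and by no higher one. CDKN1A, a cell cycle inhibitor that p53 activates, measured 822 and 777 FPKM in A382_P53 libraries, against 250 and 254 FPKM in A382_PCW libraries. In this comparison 84.3% of all tested genes were called, 46.7% lower and 37.6% higher, so 7 of 9 is near the share of all genes called, and nothing is read from the count.

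In the BRD8-MRG module MORF4L2, MORF4L1 and MRGBP fell. MORF4L2 measured 80.5 and 79.6 FPKM in A382_P53 libraries, against 210 and 203 FPKM in A382_PCW libraries, a log2 fold change of -1.35 ± 0.042 (limma adjusted p = 1.42e-07). Replicates lay close together on both sides, and 4.02% of tested genes had a lower fold. MORF4L1 measured 25.9 and 25.1 FPKM in A382_P53 libraries, against 47.2 and 44.5 FPKM in A382_PCW libraries (-0.82 ± 0.054, limma adjusted p = 4.86e-06). MRGBP measured 20.5 and 22.0 FPKM in A382_P53 libraries, against 38.2 and 35.2 FPKM in A382_PCW libraries (-0.76 ± 0.064, limma adjusted p = 1.88e-05). BRD8, the fourth subunit of this module, measured 20.1 and 17.6 FPKM in A382_P53 libraries, against 20.2 and 19.3 FPKM in A382_PCW libraries, with overlapping groups and no call (-0.066 ± 0.075, limma adjusted p = 0.434).

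In the acetyltransferase core, MEAF6 measured 6.11 and 5.93 FPKM in A382_P53 libraries, against 11.4 and 10.2 FPKM in A382_PCW libraries (-0.75 ± 0.079, limma adjusted p = 6.81e-05). EPC2 measured 4.15 and 5.83 FPKM in A382_P53 libraries, against 7.45 and 7.50 FPKM in A382_PCW libraries (-0.51 ± 0.13, limma adjusted p = 0.00741). ING3 measured 4.30 and 4.79 FPKM in A382_P53 libraries, against 6.47 and 5.28 FPKM in A382_PCW libraries (-0.31 ± 0.10, limma adjusted p = 0.027). EPC1 measured 4.40 and 3.85 FPKM in A382_P53 libraries, against 4.93 and 5.26 FPKM in A382_PCW libraries (-0.25 ± 0.087, limma adjusted p = 0.0283). None of these 4 overlapped between groups. The ING3 and EPC1 calls were each lost under 4 of the alternatives run and kept under 4. Among the losses, that of ING3 was lost without A382_PCW replicate 1 (-0.18) or A382_P53 replicate 1 (-0.24). That of EPC1 was lost without A382_PCW replicate 2 (-0.21) or A382_P53 replicate 2 (-0.18). The catalytic subunit KAT5 did overlap between groups, at 9.92 and 8.75 FPKM in A382_P53 libraries, against 7.93 and 9.98 FPKM in A382_PCW libraries (0.059 ± 0.11, limma adjusted p = 0.635).

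The median log2 fold change was -0.51 over the 9 members and -0.13 over all genes. Rescaling by the median ratio moved that of all genes to 0.077 and the share of calls that were higher to 55.2%, against 44.6%. On that scale MORF4L2 (-1.13), MORF4L1 (-0.60), MEAF6 (-0.55) and MRGBP (-0.54) stayed called, while EPC2 (-0.32, limma adjusted p = 0.0588), ING3 (-0.12, limma adjusted p = 0.341) and EPC1 (-0.067) were not.

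**Figure D5:**
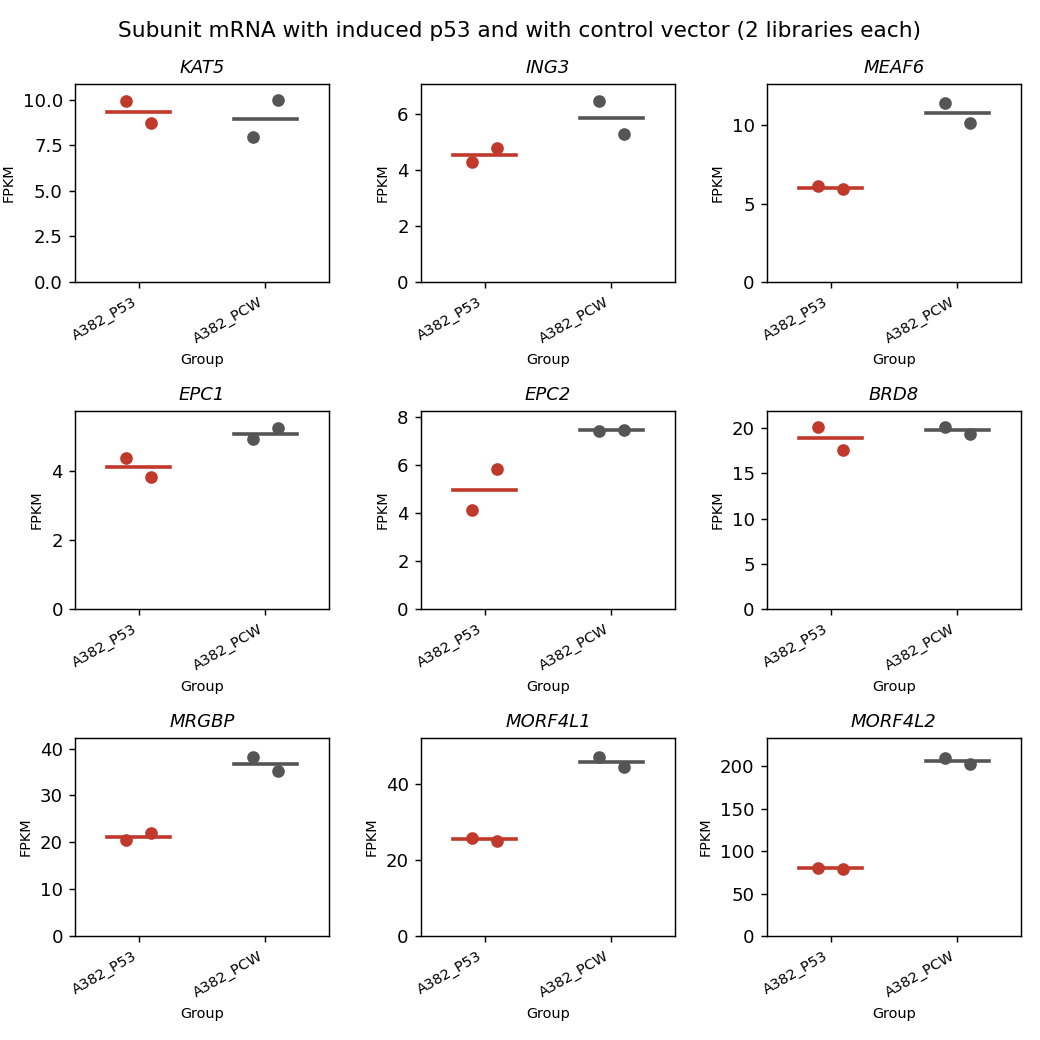
FPKM of the 9 members in A382_P53 (left) and A382_PCW libraries (right), 2 libraries each, with bars at the means and axes starting at 0. MORF4L2, MORF4L1, MRGBP and MEAF6 lie well below their controls, while KAT5 and BRD8 overlap.

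Other genes of the complex and of the members' further partners were followed as lists. With induced p53, 7 of 9 other subunits of the complex fell and 0 rose, with a median log2 fold change of -0.72. These counts stand against 84.3% of all genes called, 46.7% lower and 37.6% higher, so they are given as a description, as are those of the lists that follow. They were led by ACTL6A, an actin-related protein (-1.38 ± 0.051), RUVBL2 (-1.22 ± 0.053), RUVBL1 (-1.18 ± 0.049) and YEATS4, which encodes GAS41 (-0.98 ± 0.097), all with a limma adjusted p of at most 4.92e-05. Of 11 partners of MEAF6 in the MOZ/MORF and HBO1 complexes 6 fell and 3 rose, with BRPF1 (1.44 ± 0.066) and BRD1 (1.13 ± 0.068) among the scaffolds that rose and BRPF3 and JADE1 (-0.59 ± 0.085) among those that fell. Of 12 partners of the MORF4L proteins outside the complex 9 fell and 1 rose, led by the deacetylase HDAC2 (-1.57 ± 0.078) and PHF12 (-1.05 ± 0.061). Of 6 other nuclear acetyltransferases 3 fell and 3 rose, with KAT2B (1.13 ± 0.080) and KAT2A (1.02 ± 0.044) higher and HAT1 (-0.91 ± 0.085) lower.

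In TIP60 knockout 0 of the 9 other subunits were called by limma, where 42% of all genes were called, 26.6% lower and 15.4% higher. The 11 MOZ/MORF and HBO1 partners had 5 lower and 1 higher there, among them JADE2, an HBO1 scaffold (-1.45 ± 0.17, limma adjusted p = 1.17e-05), KAT6B (-0.71 ± 0.19) and ING5 (-0.53 ± 0.11). Of the 12 MORF4L partners, 5 were lower and 0 higher, led by PHF12, which joins SIN3 to MORF4L1 (-0.99 ± 0.14, limma adjusted p = 5.59e-05), and KDM5B, a histone demethylase (-0.84 ± 0.13). Of the 6 other acetyltransferases 2 were lower, CREBBP (-0.69 ± 0.17, limma adjusted p = 0.00403) and KAT2A (-0.35 ± 0.13, limma adjusted p = 0.0436). JADE2 was also lower in TRRAP (-0.85 ± 0.17, limma adjusted p = 0.00543) and EP400 knockouts (-0.69 ± 0.17, limma adjusted p = 0.036). In the RUVBL1 and RUVBL2 knockouts 27.8% and 33.4% of all genes were called. There 1 of the 8 other subunits was called in each, YEATS4, which was lower. Its log2 fold change was -0.55 ± 0.16 (limma adjusted p = 0.0344) for RUVBL1 and -0.77 ± 0.16 (limma adjusted p = 0.00723) for RUVBL2. Of the 10 tested MOZ/MORF and HBO1 partners 2 were higher in each and 0 lower. Among them was ING4, an HBO1 subunit (0.67 ± 0.19, limma adjusted p = 0.0271, and 0.55 ± 0.19, limma adjusted p = 0.0498). In BRD8 knockout, where 45.9% of all genes were called, 2 of 9 other subunits were higher and 1 was lower, and of the 7 tested MOZ/MORF and HBO1 partners 1 was higher and 1 lower. There YEATS4 was higher (0.18 ± 0.068, limma adjusted p = 0.0489) and ING4 lower (-0.46 ± 0.13, limma adjusted p = 0.017), each opposite in sign to its fold in the RUVBL knockouts. PHF12 was lower as well (-0.48 ± 0.069, limma adjusted p = 0.000449), 1 of 2 lower among 10 tested MORF4L partners, and so were KAT2A (-0.31 ± 0.076, limma adjusted p = 0.00813) and KAT2B (-0.22 ± 0.062, limma adjusted p = 0.0169) among the 6 other acetyltransferases.

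The genes whose level followed each member most closely over the guide libraries were found from values centred on each section, without the libraries that target the member. These correlations describe shared libraries and depth, over 36 to 42 libraries and 7259 genes, and carry no test. MRGBP was nearest to STRADB (Pearson r = 0.876) and to KAT5 (r = 0.865). Without the libraries of TIP60 as well, r between MRGBP and KAT5 was 0.724 over 38 libraries. MORF4L1 was nearest to RPS3A (0.901) and POLR2H (0.889), and MORF4L2 to RNF14 (0.879) and GNAI3 (0.874). The 2 MORF4L genes had an r of 0.772 with each other over 38 libraries. ING3 was nearest to HJURP (0.848) and ARHGAP11A (0.843), MEAF6 to MED28 (0.832) and BTN2A1 (0.809), EPC2 to TMEM245 (0.814), BRD8 to ETV4 (0.794) and KIF22 (0.736), EPC1 to TTC31 (0.742) and G3BP1 (0.714), and KAT5 to MCRS1 (0.765) and RING1 (0.726). Within the group the lowest r were those of EPC2 with MORF4L1 (-0.576) and of ING3 with MEAF6 (-0.567).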

How the data were processed

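The authors deposited 1 table of FPKM values for 19102 genes and 48 libraries, and per the submitters' processing notes TopHat2, Cufflinks, Cuffdiff and hg19 were used, without versions. Reads per library are not in the table, so depth was estimated from the steps of low values. Column names were matched to sample titles, and 0 columns belonged to other samples. Within each of the 5 sections, limma (version 3.58.1, R 4.3.3) was fitted to log2(FPKM + 1) of genes reaching 1 FPKM in 2 or more libraries, with targets as levels, trended empirical Bayes moderation and two-sided tests, with Benjamini-Hochberg adjustment over all tested genes and calls at an adjusted p under 0.05. This scale understates changes of low genes. Targets with 1 library borrowed the spread of the section. The fit was tested on simulated data. All members, and list genes that were called (at most 4 per list), are named. The members and lists were chosen with earlier results of these data known. Alternatives were a pseudocount of 0.1, no filter, rescaling by the median ratio, other estimates of the spread, the shared column kept, a replicate block and leaving out each library. Replicate numbers did not pair the libraries. Some values that the rule for named genes covers are not reported here.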

Additional observations from a re-analysis of the deposited data

Results flagged for a closer look

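Some members differed between 2 knockouts of the same section in a direct limma contrast, and no explanation was tested. Between sgTIP60 and sgEP400 libraries the log2 difference was -0.876 for KAT5, which is the target of sgTIP60, and -0.57 for MEAF6. Between sgTIP60 and sgTRRAP libraries it was -1.03 for KAT5, 0.641 for ING3, -0.645 for MEAF6 and -0.994 for MRGBP. The ING3 difference was not called without sgTIP60 guide 2 (0.448, limma adjusted p = 0.0893) or without sgTRRAP guide 2 (0.554, limma adjusted p = 0.0673).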

How the results depend on the processing

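Leaving out 1 library at a time moved the MRGBP fold in its own knockout between -1.661 and -0.459 and that of MORF4L1 between -0.11 and 0.188, against 0.039 with all libraries. MRGBP was also called (-1.06, limma adjusted p = 0.0144) with the spread shared over all guide libraries. Counts of other members called under the same leave-outs were 0 to 1 for BRD8 (1 with all libraries), 1 to 8 over the knockouts set against sgNeg2 (5), 1 to 7 over those set against sgNeg3 (5), 0 to 1 for H2AZ (0) and 6 on p53 induction (7). The spread shared over all guide libraries gave 0 for BRD8. Against sgNeg2, no filter gave 2 and the spread from the comparison alone gave 3, and against sgNeg3 that spread gave 9, and rescaling gave 4 on p53 induction. The cause of these shifts was not tested. Of the single member folds that are not own targets, only those called or at least 0.3 in size were followed here. For these, 248 alternative values kept their side of the threshold, 50 lost a call and 14 gained a call. Of all 189 member folds, 76 changed sign under at least 1 alternative, that of MORF4L1 in its own knockout among them; as reported, 0 of these were called and their size was at most 0.261. Counts of all genes called moved widely: 2007 to 3951 for BRD8 (3885 as reported), 859 to 6077 for RUVBL1 (3077), 1652 to 6776 for RUVBL2 (3698), 72 to 2637 for TRRAP (1621), 9 to 1669 for EP400 (436), 324 to 1176 for H2AZ (667), 0 to 696 for ACTL6A (89), 0 to 1053 for GAS41 (107), 2 to 238 for MRGBP (30), 1 to 183 for ING3 (3), 0 to 77 for DMAP1 (0), 0 to 49 for MEAF6 (0), 0 to 26 for VPS72 (0), 0 to 2 for MORF4L1 (0), 0 to 1315 for MORF4L2 (0), 943 to 2491 for TIP60 against EP400 (2421), 0 to 41 for MORF4L2 against MORF4L1 (0) and 0 to 1 for RUVBL2 against RUVBL1 (1). In the MRGBP knockout rescaling moved the share of calls that were higher to 86.4%, against 66.7%. A replicate block left the BRD8 fold at -1.093 and the count on p53 induction at 7 and changed no member call. Same-numbered libraries had correlated deviations of 0.00256 (BRD8), 0.0493 (H2AZ) and 0.042 (p53), so the numbers are not taken as pairs. With 2 libraries a group, small folds are not detectable.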
